A study of Rattus norvegicus with 17 samples.

Results

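The intercellular adhesion molecule genes Icam1, Icam2, Icam4 and Icam5 were described together with Vcam1 and Tcam1 in the hippocampus of adolescent Long-Evans rats. The 6 genes were taken by symbol from a table of 34322 genes. Icam2 and Tcam1 were selected on their measured difference between diets in these same libraries, so their levels by diet are a description and carry no test. Other symbols with a similar ending, Ticam1 and Ticam2, are Toll-like receptor adaptors and were not included.

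The rats were the offspring of dams on 3 diets. ET dams received a liquid diet with 6.7% ethanol over gestational days 0 to 20, PF dams were pair-fed a liquid diet without ethanol, and AD dams ate standard chow freely. All dams ate control chow from gestational day 20, and the offspring were 36 to 38 days old at tissue collection. Bulk RNA was sequenced from 5 ET, 6 PF and 6 AD animals, with 3 technical replicates each. Each diet was 1 litter, so a difference between diets cannot be told apart from a difference between litters, and the p-values measure the spread between littermates. Values below are fragments per gene averaged over technical replicates and scaled for library size and composition (normalized counts), and errors are SD over animals unless an SE is named.

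Libraries held 10853947 to 17498392 fragments (median 13538433). The 3 libraries that the study set aside, ET replicate 2, PF animal 11f6 and AD replicate 4, held 87656 to 112976 normalized counts of Ttr, the transthyretin gene of the choroid plexus, against at most 14510 in the others. They are shown but not fitted, which left 4 ET, 5 PF and 5 AD animals in the final set. Y-linked counts matched the sex label in 15 of 17 libraries. The library labelled as the male AD replicate 1 had a Y-linked sum of 0, and that labelled as the female AD replicate 2 had 3352.0. The tissue label was met by telencephalic excitatory neuron markers, whose highest gene was Camk2a at a mean of 63450.7.

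These genes encode cell surface proteins of the immunoglobulin superfamily. Icam1, Icam2 and Icam4 are ligands of leukocyte integrins. Icam1 is induced on endothelium by inflammatory cytokines, Icam2 is carried constitutively by endothelium, and Icam4 is a red cell antigen. Icam5, also called telencephalin, sits on the dendrites of telencephalic neurons. Vcam1 is the counter-receptor of the integrin that pairs Itga4 with Itgb1, and Tcam1 was named as a testicular cell adhesion molecule.

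The genes lie at 3 places in the rat genome. Icam1, Icam4 and Icam5 follow each other on chromosome 8 on the same strand, with 636 bases between Icam1 and Icam4 and 211 bases between Icam4 and Icam5. Tcam1 and Icam2 share chromosome 10, where 88179 bases separate them, and Vcam1 lies on chromosome 2. The 250 bases before the annotated start are shown for Tcam1, whose level differed between diets, and for the cytokine-inducible genes Icam1 and Vcam1, whose levels did not pass the test. They come from RefSeq on build GRCr8, at chr10:91708008-91708257 (+ strand), chr8:27829595-27829844 (+ strand) and chr2:206742784-206743033 (- strand). The promoter table used held 5 of the 6 genes, and no Icam2 promoter is shown. Capitals mark matches, on either strand, to TATAAA, to the NF-kB-like motif GGNNNTTCC and to the E-box CACGTG, which were chosen after the sequences were seen.
Tcam1: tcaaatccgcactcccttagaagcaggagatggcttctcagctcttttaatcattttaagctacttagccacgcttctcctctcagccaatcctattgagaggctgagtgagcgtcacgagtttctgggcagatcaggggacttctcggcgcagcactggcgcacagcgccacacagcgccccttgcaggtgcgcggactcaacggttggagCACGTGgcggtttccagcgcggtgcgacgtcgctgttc
Icam1: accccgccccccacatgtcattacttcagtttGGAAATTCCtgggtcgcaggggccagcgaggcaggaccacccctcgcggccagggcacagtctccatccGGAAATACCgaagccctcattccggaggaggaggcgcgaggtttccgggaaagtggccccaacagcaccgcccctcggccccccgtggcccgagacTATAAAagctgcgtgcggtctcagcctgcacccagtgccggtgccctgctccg
Vcam1: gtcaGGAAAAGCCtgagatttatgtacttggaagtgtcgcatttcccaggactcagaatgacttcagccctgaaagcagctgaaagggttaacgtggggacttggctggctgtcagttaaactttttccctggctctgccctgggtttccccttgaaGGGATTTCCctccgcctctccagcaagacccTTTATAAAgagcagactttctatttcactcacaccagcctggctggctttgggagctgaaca

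The Tcam1 sequence held CACGTG, with its first base at -38 from the start, and neither of the other motifs. The Icam1 sequence held TATAAA at -53 and GGNNNTTCC at -218 and, on the reverse strand, at -149. In Vcam1, TATAAA lay at -60, overlapping a reverse match at -62, and GGNNNTTCC lay at -93 and, on the reverse strand, at -246. No match to the 3 motifs lay in the same window of Icam4 or Icam5. Among 33469 promoter windows of this length, 12.9% held TATAAA, 15.4% held GGNNNTTCC and 5.59% held CACGTG. A match describes the letters and is not evidence of binding.

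Icam2 was counted in PF hippocampi and was near 0 in the other 2 diets. The deposited averaged counts in PF were 13.67, 12.67, 17.00, 13.33 and 13.67 fragments in the final set, and 17.33 in animal 11f6. In ET they were 0, 1.00, 0.67 and 1.00, with 0 in the set-aside replicate 2. In AD they were 0.33, 0.33, 0.67, 0.67 and 0.67, with 0.33 in replicate 4. Every PF library therefore lay above every ET and AD library, with or without the set-aside libraries. Among all genes tested, ET lay wholly below PF for 4.98% and PF wholly above AD for 5.03%, and nothing is read from this for a gene chosen for its difference.

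In normalized counts, Icam2 stood at 13.8 ± 2.29 in PF (n = 5), 0.63 ± 0.444 in ET (n = 4) and 0.552 ± 0.244 in AD (n = 5). The fitted log2 fold change was -4.06 (SE 0.36) for ET against PF and 4.30 (SE 0.39) for PF against AD. Without AD replicates 1 and 2, whose sex labels did not match, the latter was 3.54 (SE 0.32), still higher in PF. Averaged counts were rounded to whole numbers before these fits, which moved AD values of 0.33 down and those of 0.67 up. With technical replicates summed, which needs no such rounding, the log2 fold change was -4.34 (SE 0.39) for ET against PF and 4.61 (SE 0.28) for PF against AD. Summed over technical replicates, 211 Icam2 fragments in PF stood against 8 in ET, a depth-adjusted ratio of 21.5. The ratio of PF to AD was 26.3. These ratios pool animals, leave out the spread between them and carry no test. ET and AD were both at or under the floor of 3 counts per library, so no fold between them is given.

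Endothelial marker levels did not separate the diets. All 16 endothelial genes were tested and 0 were called in any diet contrast. Their summed normalized level ran from 7711.8 to 9709.6 in ET, 8750.6 to 9908.9 in PF and 8543.7 to 10403.7 in AD. In bulk tissue, fewer cells of a type and less RNA per cell cannot be told apart. The highest gene of the list was Slco1c1, a thyroid hormone transporter of brain capillaries, with a log2 fold change of -0.06 (SE 0.05) in ET against PF.

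Icam2 overlaps Prr29 by 1765 bases in the RefSeq gene table, reads could be counted for several features, and whether strand was used is not given in the sources used here, so reads of the shared stretch cannot be assigned with certainty. Prr29 ran from 29.7 to 44.8 normalized counts in PF, 25.6 to 32.8 in ET and 22 to 28.8 in AD over the final set. PF lay above AD without overlap but overlapped ET. Its log2 fold change was -0.25 (SE 0.15, edgeR adjusted p = 0.636) in ET against PF and 0.41 (SE 0.14, edgeR adjusted p = 0.149) in PF against AD, and neither passed. The neighbour Ern1, an endoplasmic reticulum stress sensor, changed by -0.06 (SE 0.09, edgeR adjusted p = 0.917) in ET against PF and did not pass.

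Tcam1 ran the other way, lowest in PF. The deposited counts in ET were 12, 26.67, 23.00 and 19.00, with 41.00 in the set-aside replicate 2. In PF they were 3.67, 2.00, 1.67, 0.67 and 4, with 4.67 in animal 11f6. In AD they were 36.67, 22.00, 35.33, 27.33 and 21.00, with 43.00 in replicate 4. No PF library reached the lowest ET or AD library, whereas ET and AD overlapped. ET lay wholly above PF for 1.8% of all genes tested and PF wholly below AD for 1.58%. ET lay wholly above AD for 0.718% and wholly below it for 0.47%.

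Mean normalized Tcam1 was 19.2 ± 5.33 in ET (n = 4), 2.34 ± 1.34 in PF (n = 5) and 28.5 ± 7.75 in AD (n = 5). The log2 fold change was 2.87 (SE 0.33) for ET against PF, -3.41 (SE 0.33) for PF against AD and -0.54 (SE 0.26) for ET against AD. Fragments summed to 242 in ET, 36 in PF and 427 in AD. The depth-adjusted ratio of ET to PF was 8.25, that of AD to PF 11.9 and that of AD to ET 1.44. These ratios pool animals, leave out the spread between them and carry no test.

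**Figure D1:**
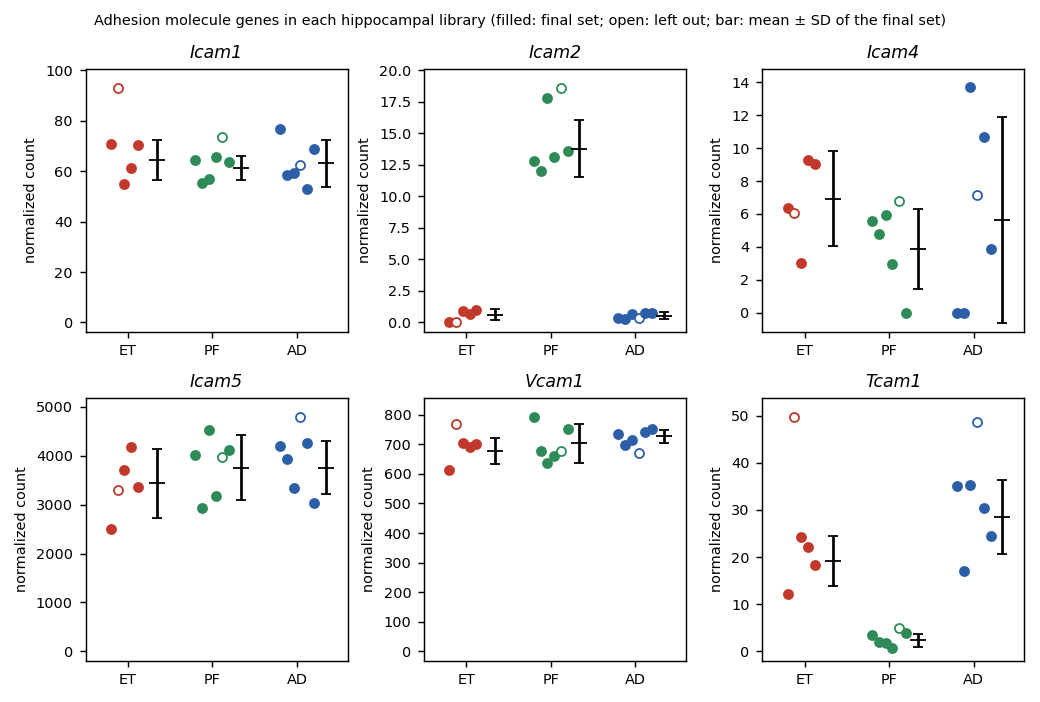
Normalized counts (vertical axis, 1 panel per gene) in each library of the ET, PF and AD diets. Filled points are the final set, open points the 3 set-aside libraries, and the bars beside them the mean ± SD of the final set. PF sits apart for Icam2 (12 to 17.8, others at most 0.97) and for Tcam1 (0.654 to 3.97, others at least 12.1), while the diets overlap in the other 4 panels.

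Beside Tcam1, most testis markers were too low to be tested. Of 11, 4 (Sycp1, Prm1, Tnp1 and Acrv1) had 0 counts in every library, and 2 were abundant enough to be tested. Neither was called. Sycp3, a gene of the meiotic chromosome axis, averaged 37 normalized counts, with a log2 fold change of -0.61 (SE 0.14, edgeR adjusted p = 0.0403) in ET against PF. The highest, Inha, the inhibin alpha subunit, averaged 75.1 normalized counts. The summed level of the list ran from 98.5 to 111 in ET, 110 to 134 in PF and 110 to 124 in AD.

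Markers of neighbouring tissue and of blood were summed by diet. Of the 8 thalamus and habenula markers tested, only Tnnt1, a troponin gene, was called, higher in ET than PF (log2 fold change 1.60, edgeR adjusted p = 0.00944) and lower in PF than AD (-1.80, edgeR adjusted p = 0.000736). Tnnt1 held 20.7 to 41.6 normalized counts in ET, 4.19 to 12.9 in PF and 24.7 to 48.4 in AD, so it was lowest in PF as Tcam1 was. The summed list ran from 1889.0 to 3504.0 in ET, 1684.9 to 2030.2 in PF and 1945.8 to 2219.5 in AD. Summed blood markers, led by the haemoglobin gene Hbb, ran from 7970.4 to 10954.1 in ET, 3845.0 to 7998.0 in PF and 8272.4 to 11471.3 in AD, with 0 of 7 tested genes called. Hbb changed by 0.72 (SE 0.19, edgeR adjusted p = 0.0745) in ET against PF and by -0.78 (SE 0.18, edgeR adjusted p = 0.0221) in PF against AD. The median log2 fold changes in these comparisons were 0.38 and -0.73 for the blood list and 0.39 and -0.16 for the thalamus and habenula list. Choroid plexus markers, led by Ttr, summed to 4290.0 to 20896.5 in ET, 3361.5 to 23238.8 in PF and 2848.7 to 5602.7 in AD over the final set. The median log2 fold change of the 10 choroid plexus genes was 0.13 in ET against PF, 1.12 in PF against AD and 1.18 in ET against AD, and 0 were called. The part of these tissues in the levels of Icam2 and Tcam1 was not tested.

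Tested genes beside Tcam1 did not share its pattern at the threshold. Smarcd2, a chromatin remodelling subunit 5849 bases away, changed by -0.03 (SE 0.07, edgeR adjusted p = 0.96) in ET against PF. Psmc5, a proteasome subunit, changed by 0.05 (SE 0.13, edgeR adjusted p = 0.959), and the sodium channel gene Scn4a, which lies between Tcam1 and Icam2, by 0.24 (SE 0.36, edgeR adjusted p = 0.922). Gh1, the growth hormone gene 7613 bases away, had 0 counts in every library. Cd79b, 18864 bases away, was too low to be tested. Its mean normalized counts over the final set were 2.65 in ET, 1.52 in PF and 4.06 in AD, lowest in PF as for Tcam1.

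Icam1 did not pass the test in any diet comparison. Normalized counts were 70.9, 54.7, 61.4 and 70.5 in ET, 64.4, 55.2, 57, 65.7 and 63.5 in PF, and 76.6, 58.3, 59.3, 52.9 and 68.6 in AD. Its log2 fold change was 0.08 (SE 0.11, edgeR adjusted p = 0.927) for ET against PF. For PF against AD it was -0.05 (SE 0.11, edgeR adjusted p = 0.897), and for ET against AD 0.03 (SE 0.13, edgeR adjusted p = 1). The diets overlapped in each comparison.

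Icam5 was counted at 2486.67 fragments or more in every library. Normalized counts were 2508.4, 3709.1, 4175.5 and 3356.1 in ET, 4023.7, 2938.3, 4537.9, 3184.7 and 4120.0 in PF, and 4209.0, 3941.6, 3343.8, 4264.5 and 3026.4 in AD. Its spread between littermates was 14.6% to 20.5% of the mean, and the diets overlapped. The log2 fold change was -0.13 (SE 0.16, edgeR adjusted p = 0.894) for ET against PF, 0.0013 (SE 0.13, edgeR adjusted p = 0.997) for PF against AD and -0.13 (SE 0.15, edgeR adjusted p = 1) for ET against AD. Without ET replicate 1, the lowest Icam5 library, both ET values were nearer 0, at -0.0037 (SE 0.14) against PF and -0.0059 (SE 0.12) against AD.

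Vcam1 had a smaller spread than Icam1 and Icam5 in ET and AD. Normalized counts were 612, 704, 692 and 702 in ET, 792, 678, 636, 659 and 753 in PF, and 736, 697, 713, 740 and 750 in AD, a spread of 2.96% to 9.4% of the mean. Again the diets overlapped. Its log2 fold change was -0.05 (SE 0.08, edgeR adjusted p = 0.922) for ET against PF, -0.05 (SE 0.06, edgeR adjusted p = 0.777) for PF against AD and -0.10 (SE 0.06, edgeR adjusted p = 1) for ET against AD.

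Icam4 was below the filter on low counts of the main test. Its averaged counts were 6.33, 3.33, 9.67 and 9.33 in ET, 6.00, 5.00, 5.67, 3.00 and 0 in PF, and 0, 0, 13.67, 9.67 and 3.33 in AD. The 2 AD zeros fell in replicates 1 and 2, the libraries at odds with their sex label. Replicate 2 was also the deepest library at 17498392 averaged fragments. An averaged count of 0 was taken there to allow up to 0.171 CPM, a wide bound since 3 technical replicates held none. AD thus spanned the range of the other diets, at 5.65 ± 6.27 normalized counts (n = 5), and no order of the diets could be read from it. Without the filter, its log2 fold change was 0.76 (SE 0.51, edgeR adjusted p = 0.743) in ET against PF, -0.44 (SE 0.83, edgeR adjusted p = 0.857) in PF against AD and 0.32 (SE 0.79, edgeR adjusted p = 1) in ET against AD.

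**Figure D2:**
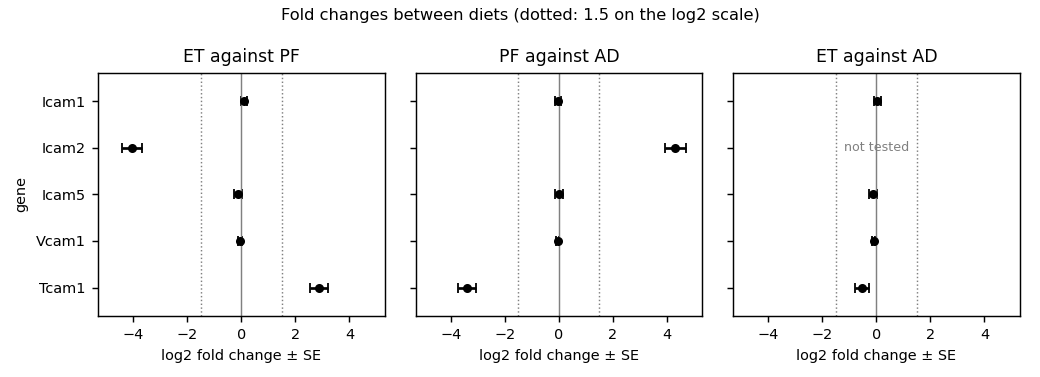
Log2 fold change (horizontal axis, points) with its SE (bars) for the 5 genes with enough counts, in the 3 diet comparisons. Dotted lines mark a log2 fold change of 1.5, the size required for a call. Icam2 and Tcam1 lie beyond the lines on opposite sides in both comparisons with PF, and Icam1, Icam5 and Vcam1 stay within 0.13 of 0.

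Across the table, 2.17% of 16068 genes were called in ET against PF, at an adjusted p below 0.01 and a log2 fold change beyond 1.5. Calls were 343 lower (2.13%) and 6 higher (0.0373%). In PF against AD, 2.05% of 15960 genes were called, 323 higher (2.02%) and 4 lower (0.0251%). Of the 5 adhesion genes tested in each, 2 were called, the 2 that had been chosen for this, and 0 of the other 3. In ET against AD 0.0127% of 15749 genes were called by edgeR, 2 lower and 0 higher, and 0 of the 4 adhesion genes tested. At an unadjusted p below 0.05 there were 251 higher and 181 lower genes, and DESeq2 also called 2. Groups did not overlap for 6.78% of genes in ET against PF, 6.61% in PF against AD and 1.19% in ET against AD. The comparisons share samples, so their values are set side by side and are not independent.

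Sex and hemisphere were contrasts that the choice of genes did not use. In males against females of ET and PF, with diet in the model, the 5 tested genes had log2 differences of -0.05 to 0.11 and edgeR adjusted p-values of 1, with 0.0311% of all genes called. Icam1 had the difference of 0.11 (SE 0.11), Icam2 -0.05 (SE 0.27) and Tcam1 0.08 (SE 0.33). With the set-aside libraries included, Icam1 differed by 0.22 (SE 0.12) and Tcam1 by 0.58 (SE 0.40), with edgeR adjusted p-values of 1. Leaving out 1 library, Icam1 ran from 0.04 without ET replicate 3 to 0.18 without ET replicate 1, and Tcam1 from -0.03 without ET replicate 4 to 0.20 without PF animal 11f5. The diet effect was not shown to differ between the sexes for Icam1, Icam5, Vcam1 or Tcam1, with 0% of 16484 genes called by edgeR or by DESeq2. There, 134 higher and 97 lower genes had an unadjusted p below 0.05. This interaction was imprecise for the low genes, at 0.96 (SE 1.07) for Icam2 and 0.20 (SE 0.87) for Tcam1. For Icam2 it cannot decide the question, since its ET counts were at most 1.00, under the floor of 3. The interaction moved with single libraries, for Icam2 from 0.18 without ET replicate 1 to 3.26 (SE 1.67) without ET replicate 3. For Tcam1 it ran from -0.46 without PF animal 11f5 to 1.42 (SE 1.16) without PF replicate 6.

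Between 3 right and 11 left hippocampi, 0 of the 5 genes and 0% of 16439 genes were called by edgeR, and DESeq2 called 0. At an unadjusted p below 0.05, 175 genes were higher and 118 lower. Tcam1 differed by 0.56 (SE 0.32) and Vcam1 by 0.13 (SE 0.06), both higher on the right, with edgeR adjusted p-values of 1. Without AD replicate 3, Tcam1 differed by 1.16 (SE 0.67) and Vcam1 by 0.23 (SE 0.07), with edgeR adjusted p-values of 0.978. Without PF replicate 1, Vcam1 differed by 0.08 (SE 0.07). Icam1, Icam2 and Icam5 differed by 0.02, -0.03 and 0.04, and by 0.11 (SE 0.17), -0.08 (SE 0.34) and 0.20 (SE 0.22) without AD replicate 3. Icam2 differed by 0.15 (SE 0.35) without PF replicate 3. Its counts in ET and AD were at most 1.00, under the floor of 3. Hemispheres were not balanced over the diets.

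Tcam1 in the 3 set-aside libraries is given beside the rest of each litter. ET replicate 2 held 49.7 normalized counts against 12.1 to 24.3 in the other ET libraries, PF animal 11f6 held 5 against 0.654 to 3.97, and AD replicate 4 held 48.7 against 17.1 to 35.3. Tcam1 was the highest of its diet in all 3, in PF by less than 1 averaged fragment over the next library. Dixon's test for an outlying library, run over 18 groups of 1 gene in 1 diet, passed in 0. Within the final set, ET replicate 1 held 13757 of Ttr and 12.1 of Tcam1, the lowest ET value, and PF replicate 2 held 14510 of Ttr and 1.9 of Tcam1, the PF median. Icam1 was highest of its diet in ET replicate 2 (92.9) and PF animal 11f6 (73.6) but not in AD replicate 4 (62.3). Vcam1 was highest in ET replicate 2 (769) but lowest in AD replicate 4 (669). The part of choroid plexus tissue in these levels was not tested.

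**Figure D3:**
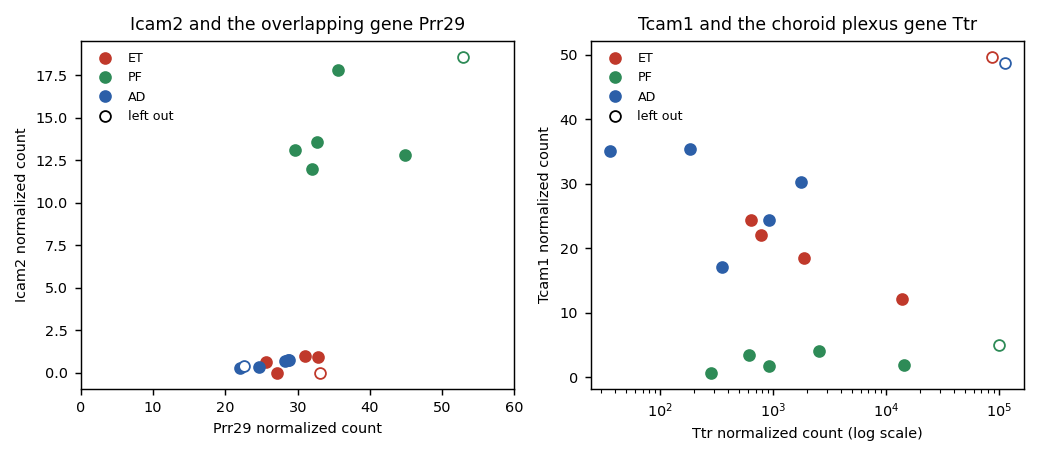
Icam2 against the overlapping gene Prr29 (left) and Tcam1 against the choroid plexus gene Ttr on a log axis (right), all in normalized counts, with 1 point per library coloured by diet and open where set aside. PF libraries stand apart in Icam2, 3 of the 6 at Prr29 levels within the ET range and 3 (35.6, 44.8 and 52.9) above the highest ET library (33.1), and the 3 open points at the far right of the Ttr axis have the highest Tcam1 of their diets (49.7, 5 and 48.7).

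Of the 17 neighbouring genes in the count table, 11 were tested in ET against PF and 1 was called, beside 2.17% of all genes. The same gene was the 1 called of 11 tested in PF against AD, beside 2.05% of all genes. LOC120100923, a long non-coding RNA gene 68258 bases from Vcam1, had 0 counts in all 5 ET libraries, 12 to 23.00 in the 6 PF libraries and at most 0.33 in AD. It was at least 6.9-fold higher in PF than in ET, against the floor of 3 counts in each ET library, with an edgeR adjusted p of 2.18e-05. Vcam1 itself did not pass in that comparison. In the Icam1 to Icam5 cluster, the flanking genes Mrpl4, a mitochondrial ribosomal protein, and Raver1 changed by 0.01 (SE 0.09) and 0.04 (SE 0.07) and were not called.

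Binding partners and regulators of the adhesion genes were read from 5 lists, and 0 genes of any list were called in any diet comparison. Among integrin subunits, 7 of 11 were tested. Itgb1 changed by 0.09 (SE 0.06) and Itgav by 0.19 (SE 0.11) in ET against PF. Itga4, furthest from 0 in the list, changed by -0.59 (SE 0.26, edgeR adjusted p = 0.407) in ET against PF. In PF against AD it changed by 0.40 (SE 0.13, edgeR adjusted p = 0.124), and neither passed. Other vascular adhesion molecules had 12 of 16 tested. In ET against PF, Alcam stood at -0.16 (SE 0.13) and the junctional gene Jam2 at -0.06 (SE 0.05). Jam3, with the smallest adjusted p of the list, changed by 0.35 (SE 0.08, edgeR adjusted p = 0.0446) there. In PF against AD, Jam3 changed by -0.22 (SE 0.05, edgeR adjusted p = 0.0147), and neither passed. The list medians in ET against PF were 0.09 and -0.01, beside 0.01 over all genes.

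All 7 cytoskeletal partners were tested, among them the actin-binding genes Cttn at 0.06 (SE 0.12) and Actn4 at 0.15 (SE 0.10), with a median of 0.10. Of 6 proteases that shed adhesion molecules 4 were tested, with Adam10 at -0.03 (SE 0.07) and Adam17 at 0.20 (SE 0.06), and a median of 0.22. Of 13 cytokine and NF-kB genes 10 were tested, with a median of 0.04. There the interferon receptor gene Ifngr1 stood at 0.03 (SE 0.07) and the NF-kB subunit gene Rela at 0.15 (SE 0.07), while Ifng had 0 counts in every library. In PF against AD the 5 medians ran from -0.08 to -0.01, beside -0.0029 over all genes. Microglial markers, led by Csf1r, had 9 tested and 0 called.

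**Figure D4:**
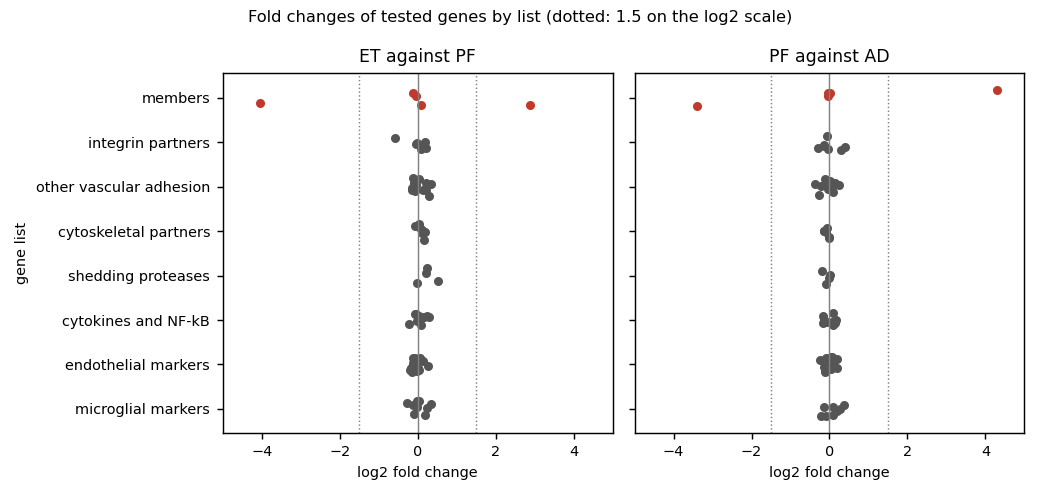
Log2 fold changes (horizontal axis) of the tested adhesion genes (red) and of the tested integrin, vascular adhesion, cytoskeletal, protease, cytokine, endothelial and microglial genes (grey, 1 point per gene, spread vertically only for sight) in ET against PF and PF against AD. Dotted lines mark 1.5. Icam2 and Tcam1 are the only points beyond the lines, and the genes of these 7 lists lie inside them. Markers of thalamus, choroid plexus and other lists are not drawn.

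The genes most like each adhesion gene were ranked among 16264 genes by Pearson correlation of log2(normalized count + 1), as a description. Over 17 libraries, which share the diet difference, Icam2 was closest to the protocadherin gene Pcdhgb7 (r = 0.991), LOC120097020 (0.991) and Pcdhgb8 (0.989). Pcdhgb7 held 1285.1 to 1616.9 normalized counts in PF, 95.2 to 166 in ET and 126 to 142 in AD, the same order of PF above the others. After diet means were subtracted over the 14 final libraries, the closest were Lamc1 (0.903), Slc22a4 (0.903) and LOC102555358 (0.897). Icam2 was at most 1.00 averaged fragment in ET and 0.67 in AD, so its deviations there are mostly counting error. Each ranking, for this and the other adhesion genes, holds the highest of 16264 values over few libraries, and no link is read from it.

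Tcam1 was closest to LOC100911990 (0.904), Tatdn3 (0.882) and the linker histone gene H1f2 (0.874) over 17 libraries, none of them called in any diet comparison. With diet means subtracted it was closest to Cyp2j3 (0.870), Eif4ebp2 (0.844) and S1pr1 (0.842). For Icam5, Plppr2 and Gal3st3 came first on both measures (0.958 and 0.948 over 17 libraries, 0.964 and 0.963 within diets). Icam1 was closest to Tax1bp3 (0.862), Igtp (0.823) and P4hb (0.819), and within diets to Med25 (0.907). Vcam1 had the lowest leading values over 17 libraries, with Slc41a1 (0.764), Axl (0.762) and Adgra2 (0.728), and within diets Garem2 (0.860).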

How the data were processed

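Bulk hippocampal RNA-seq of 17 animals was used. The authors trimmed reads with fastp and aligned them to the mRatBN7.2 assembly with Bowtie2 2.4.2. They counted fragments on exons with featureCounts 2.0.1, then averaged 3 technical replicates. The deposited values are therefore estimated counts, of which 53.3% are whole, with zeros counted as whole. Whether counting used strand is not given in the sources used here. Column names give animals without diets. They were linked to the samples through the study's own copy of the table, and the labels do not tell PF animals 11f5 and 11f6 apart as replicates.

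Counts were rounded and tested with edgeR 4.0.16 (R 4.3.3) quasi-likelihood fits, with its filter on low counts and TMM scaling, 2 diets at a time, without the 3 libraries that the study set aside. A gene was called at a Benjamini-Hochberg adjusted p below 0.01 over all genes tested and a log2 fold change beyond 1.5. For sex by diet the adjusted p alone decided, with no limit on the fold change. The SE is the log2 fold change divided by the root of F. The scripts were tested on simulated data. DESeq2 1.42.0 and other settings were alternatives. Depth was 10853947 to 17498392 averaged fragments, and a count of 0 was taken to allow 3. This bound was set on the average of 3 technical replicates and is therefore wide. The genes and lists were chosen with earlier results of these data known. Named genes were the 6 adhesion genes, their 3 neighbours on each side, the 3 most alike by correlation, the 2 highest and any called gene of each list, and the highest gene of each marker list. Tnnt1, Sycp3, Itga4, Jam3 and the testis genes and Ifng at 0 were named after their values were seen. The RefSeq build, GRCr8, is not the authors' build.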

Additional observations from a re-analysis of the deposited data

How the results depend on the processing

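In both comparisons with PF, Icam2 and Tcam1 kept their direction under every alternative run, with log2 fold changes beyond 1.5. Both genes were chosen for this difference in the same libraries, so this is a description and no check of it. Their small differences by sex and hemisphere did not all keep their sign. Leaving out each library in turn gave log2 values of -4.20 to -3.72 (Icam2) and 2.68 to 3.08 (Tcam1) in ET against PF. Same-numbered animals were not taken as pairs, since their deviations correlated at -0.02 and 0.58 in ET and PF, -0.08 to 0.11 in PF and AD, and -0.24 to 0.14 in ET and AD. With the replicate number as a block, which drops PF animal 11f5 and rests on the 2 numbers that ET and PF share, they were -4.71 and 2.55, given as a description since both were chosen for this difference, with 0 adhesion genes past the threshold. Calls over all genes fell to 194 lower and 3 higher. The block also left 0 of the 2 lower calls in ET against AD and changed no other call of an adhesion gene, with Icam5 at -0.48 in ET against PF.

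Counts of calls moved as follows. In ET against PF, higher calls were 17 at a fold change of 1.5, 10 with technical replicates summed, 3 with sex as a covariate, and 2 to 6 leaving out 1 library (2 without ET replicate 4, 3 without ET replicate 5, PF replicate 1, 3 or 6). In PF against AD, lower calls were 18 at a fold change of 1.5, 8 without a filter and 8 with replicates summed, and higher calls 485 without a filter. DESeq2 gave 2 lower genes in males. Leaving out 1 library gave 0 to 1 higher in ET against AD (1 without ET replicate 1), 1 to 2 lower by sex (2 without ET replicate 1), 0 to 1 higher for sex by diet (1 without ET replicate 3) and 0 to 1 lower by hemisphere (1 without AD replicate 3). Causes were not tested.

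Values near 0 changed sign. Icam5 in PF against AD was -0.0022 without a filter, -0.0018 with replicates summed, -0.06 with all 17 libraries, and -0.07 to 0.08 leaving out 1. Leaving out 1, Icam1 ran from -0.10 to 0.04 in PF against AD and -0.03 to 0.10 in ET against AD. Settings added after seeing the data gave Icam1 -0.01 without ET replicate 1 and PF replicate 2, and 0.02 in PF against AD without AD replicates 1 and 2. In the latter, Icam2 was 3.54. Icam4, with technical replicates summed, was 0.85 in ET against PF and -0.51 in PF against AD and did not pass. With at most 1 averaged fragment of Icam2 in any ET or AD library, no order of ET and AD can be read at this depth.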

Other observations

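Glycam1, a mucin-like glycoprotein gene, was picked out after its values were seen. It held 130, 85.8 and 204 normalized counts in ET replicate 2, PF animal 11f6 and AD replicate 4, the libraries richest in Ttr, and 52.3 in PF replicate 2. In the other 13 libraries it was at most 8.91. Among them, ET replicate 1 held 2.02 of Glycam1, with Ttr at 13757 beside 14510 in PF replicate 2.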
